A study of Mus musculus with 6 samples.

Results

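The subject is the pair of microRNAs (miRNAs, short RNAs that repress messenger RNAs) cut from the miR-126 hairpin, listed on the array as mmu-miR-126-3p and mmu-miR-126-5p. They were taken by name from the array tables and are 2 of 1247 mouse miRNAs on each array. The arrays held RNA of 3 kinds of tissue macrophage sorted from wild-type male C57BL6/J mice kept under SPF conditions: brain microglia, colon macrophages, and the liver macrophages known as Kupffer cells. No group carried a transgene, deletion or treatment in the labels, which give an age of 6 weeks, while the design text gives 6 to 8 weeks. Sorting used CD45 at an intermediate level with CD11b and F4/80 and without Ly6C and Ly6G for microglia, CD45, CD11b, CD11c and CD64 without Ly6C for colon, and CD45, CD11b, F4/80, CD64 and MHCII for liver. There were 2 arrays a group, 6 in all, each of RNA pooled from 4 to 6 mice. The stated aim of the profiling was to find miRNAs enriched in microglia of the healthy adult.

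miR-126 is best known from endothelium, the cells that line blood vessels. Its hairpin lies within Egfl7, a gene for a protein secreted by endothelial cells. The 3p arm is known to repress Spred1 and Pik3r2, inhibitors of growth factor signalling, and so to favour the response of vessels to VEGF. The 5p arm is known to repress Dlk1 and to favour endothelial proliferation. Outside vessels miR-126 is known from blood stem cells, megakaryocytes and platelets, and plasmacytoid dendritic cells. The liver sinusoids in which Kupffer cells sit are themselves lined by endothelium.

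The sequences are shown because both measured miRNAs come from this single hairpin. RefSeq (build GRCm38.p6) places the hairpin gene Mir126a at chr2:26591357-26591429 on the plus strand, inside the span of Egfl7 (chr2:26581083-26592682, also on the plus strand). A second hairpin gene, Mir126b, is annotated on the minus strand of the same place (chr2:26591363-26591420), and the array had no row for its arms. Of the 2 array names, 1 matched a mature sequence in the RefSeq table, miR-126-3p under its present name miR-126a-3p. In the first line capitals mark the seed, bases 2 to 8, and in the second the mature 3p arm.
miR-126a-3p: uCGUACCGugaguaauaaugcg
Mir126a hairpin: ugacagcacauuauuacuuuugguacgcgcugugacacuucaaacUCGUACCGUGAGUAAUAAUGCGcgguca
The 3p arm fills positions 46 to 67 of the 73 bases of the hairpin. In the minimum free energy structure (RNAfold, -31.2 kcal/mol) 19 of its 22 bases were paired, with partners between positions 7 and 27, the side of the hairpin that gives the 5p arm. Among the 1679 RefSeq mouse mature miRNAs of that table, 0 others had the seed of miR-126a-3p.

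Both arms were brightest in liver macrophages, lower in colon macrophages and lowest in microglia. Levels are given as log2 of the signal after scaling between arrays, with a floor of 1.64 for miRNAs that were not detected. On this scale miR-126-3p reached 11.94 and 11.27 in liver, 7.90 and 7.71 in colon, and 5.15 in microglia replicate 1. It was not detected on microglia replicate 2. The 3 groups did not overlap, and the only wide gap between replicates was that of the microglia. The group means were 11.60 ± 0.47 in liver, 7.81 ± 0.13 in colon and 3.40 ± 2.48 in microglia (SD, n = 2), the last with 1 array at the floor.

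miR-126-5p followed the same order. Liver macrophages had levels of 7.80 and 7.32, colon macrophages had 3.09 and 3.28, and neither microglia array detected it. The group means were 7.56 ± 0.34 in liver and 3.19 ± 0.14 in colon (SD, n = 2). The levels of the 3p and 5p probes are not compared with each other, since brightness also depends on the probe. In sorted bulk RNA, fewer cells that carry a miRNA and less of it per cell cannot be told apart.

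**Figure D1:**
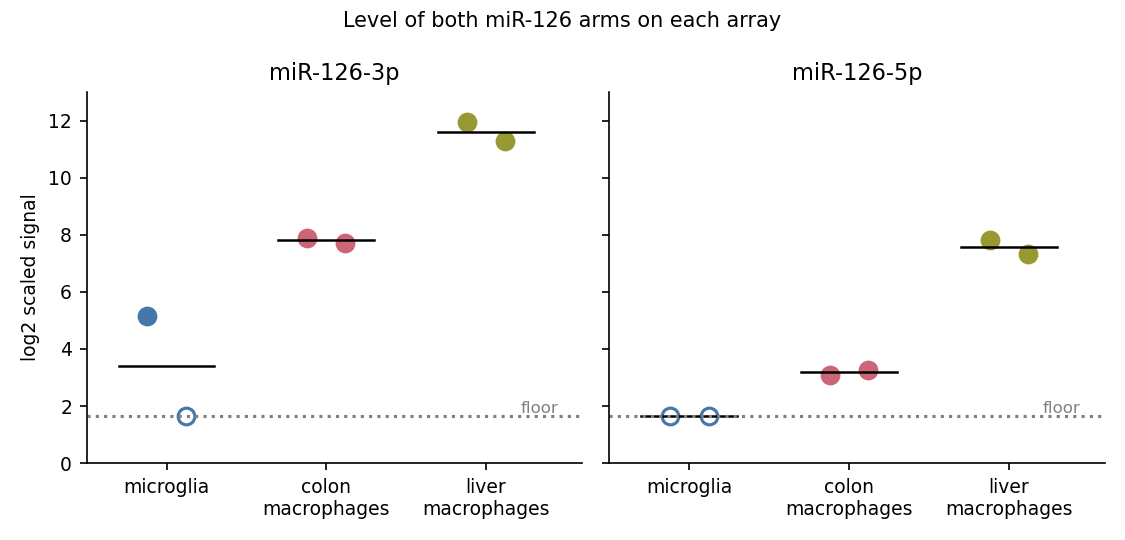
Level of each miR-126 arm on each of the 6 arrays (y axis, log2 scaled signal; x axis, macrophage group). Points are arrays, open where the arm was not detected and set to the floor of 1.64 (dotted line), and bars are group means. For both arms the liver arrays lie above the colon arrays and these above the microglia arrays.

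The signals differed in how far they rose above the error that the scanner software gave. The liver signals of miR-126-3p were 4270 ± 306 and 2670 ± 192 before scaling, each 13.9 times its error, and its colon signals were 13.8 and 13.5 times their error. On microglia replicate 1 the 3p signal was 28.0 ± 3.41, which is 8.19 times its error. The 5p arm was dimmer relative to its error in colon, where its signals of 10.8 ± 2.44 and 8.52 ± 2.50 were 4.45 and 3.41 times the error, against 12 and 11.9 times in liver. Its colon level was therefore the least precise of the detected values.

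Liver replicates differed more than colon replicates for both arms. Scaled signal on liver replicate 1 was 1.58 times that on replicate 2 for miR-126-3p and 1.40 times for miR-126-5p. The 248 miRNAs detected on all arrays went the other way, with a median 0.46 log2 units higher on liver replicate 2 than on replicate 1. The authors' deposited value table, on a log2 scale with 0 for undetected miRNAs, gave miR-126-3p as 12.45 and 11.36 in liver, 7.72 and 7.85 in colon, and 5.65 and 0 in microglia. It gave miR-126-5p as 8.01 and 7.20 in liver, 1.95 and 3.03 in colon and 0 on both microglia arrays. The order of the groups was the same in that table.

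Against liver macrophages, microglia had less of both arms. miR-126-3p was lower by a log2 change of -8.21 (SE 1.14, limma adjusted p = 0.00441), the most negative change among the 382 miRNAs tested, although its size depends on the floor that stands for microglia replicate 2. Liver macrophages had 87.4 times the level of microglia replicate 1. They had 900 times that of replicate 2 when the lowest detected signal of that array stands for it. A probe's own detection limit can lie higher, so folds of this kind are not strict lower bounds. For miR-126-5p microglia were 50.1-fold below liver in the same way. Its log2 change with the floor was -5.92 (SE 0.29, limma adjusted p = 0.000604), rank 4 of 382 from the most negative change. At this threshold, an adjusted p under 0.05, 52.9% of all tested miRNAs were called between microglia and liver macrophages and 31.7% were lower in microglia, so that being called sets neither arm apart, while the sizes of their changes lie at the end of the range. The split of 81 higher and 121 lower depended on the scaling, with 124 and 108 under median scaling and 29 and 163 under scaling by control rows, and both arms were called lower under each. Without liver replicate 1 the adjusted p of miR-126-3p was 0.058 in limma's test, at a log2 change of -7.77 (0.00592 to 0.058 over the 6 arrays left out in turn). Its log2 change was -10.07 without microglia replicate 1 and -6.35 without microglia replicate 2. With no filter on dim miRNAs, so that all 1247 were tested, its adjusted p was 0.118 (0.00118 to 0.118 over the 12 other settings that kept all arrays).

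Against colon macrophages, both arms were again lower in microglia. miR-126-3p changed by -4.41 log2 units (SE 1.14, limma adjusted p = 0.0313). Colon macrophages had 6.29 times the level of microglia replicate 1 and 64.7 times the lowest detected signal of replicate 2. For miR-126-5p the difference was 2.42-fold from each microglia array's lowest detected signal (log2 change -1.55 with the floor, SE 0.29, limma adjusted p = 0.0133). This is not a strict lower bound, since a probe's own detection limit can lie higher. On microglia replicate 2 miR-192-5p was detected at a scaled signal of 7.33, only 3.16 times its error. The scaled colon signals of miR-126-5p were 8.52 and 9.73, so its true difference could be smaller. Of all 379 tested miRNAs 46.2% were called and 28.5% were lower in microglia. From the most negative change miR-126-3p was rank 13 and miR-126-5p rank 117, so the 5p change was not at the end of the range. Here 67 higher and 108 lower became 112 and 69 under median scaling and 32 and 124 under scaling by control rows. The call of miR-126-3p was lost in 7 of the 12 other settings that kept all arrays (adjusted p 0.0153 to 0.376 over the 12) and in 4 of the 6 fits that left an array out. It was lost with an adjusted p of 0.184 without colon replicate 1, 0.193 without colon replicate 2, 0.101 without liver replicate 1 and 0.0982 without liver replicate 2 (0.0102 to 0.193 over the arrays left out). The log2 change was -6.26 without microglia replicate 1 and -2.62 without microglia replicate 2. The call of miR-126-5p was lost without either microglia array or either colon array, with adjusted p from 0.0553 to 0.0806 in limma's test (0.00769 to 0.0806 over all 6). It was also lost with quantile normalization (log2 change -1.08, adjusted p = 0.0712) and with no filter (adjusted p = 0.108).

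Between colon and liver macrophages the arms gave different calls at similar sizes. miR-126-5p was 20.7-fold higher in liver (log2 change of colon minus liver -4.37, SE 0.29, limma adjusted p = 0.00203). miR-126-3p was 13.9-fold higher in liver by its group means (-3.80, SE 1.14, 95% interval -6.68 to -0.91) and did not pass (limma adjusted p = 0.109). Of the 396 tested miRNAs 10.1% were called and 4.8% were lower in colon. The 21 higher and 19 lower became 20 and 31 under median scaling and 8 and 16 under scaling by control rows. The colon and liver arrays of miR-126-3p lay 3.37 log2 units apart at their nearest. The model pooled the spread of all 3 groups, and the 3p SD was 2.48 in microglia against 0.13 and 0.47 in the groups compared. When the colon and liver arrays were fitted alone, miR-126-3p passed with an adjusted p of 0.00762 in limma's test (0.00762 to 0.923 over the 12 other settings with all arrays). It passed as well without microglia replicate 1 (adjusted p = 0.0456) and without microglia replicate 2 (adjusted p = 0.0326), in a range of 0.0326 to 0.505 over the arrays left out. For miR-126-5p the floor gave microglia an SD of 0, which lowers its pooled spread, so that its SE and p-values may be too small.

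**Figure D2:**
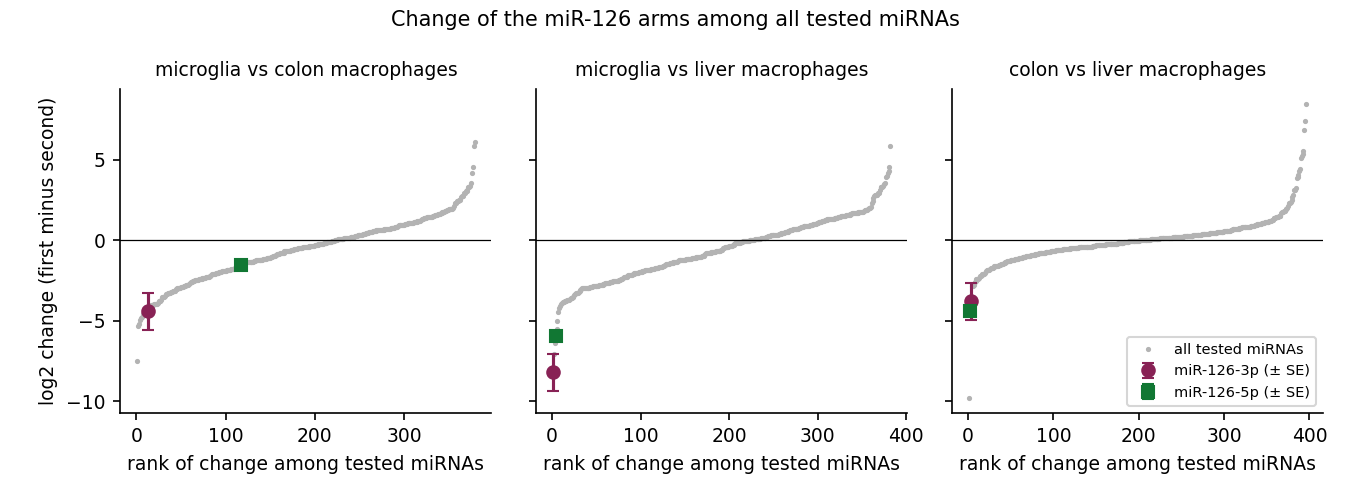
Log2 change of every tested miRNA (grey, y axis) in order of its rank (x axis) in the 3 comparisons, with miR-126-3p and miR-126-5p marked with their SE. Both arms lie at the negative end in the comparisons with liver, where miR-126-3p reached -8.21 in microglia against liver macrophages.

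The arms were set against each other only through their changes. Between colon and liver the log2 changes of -3.80 for miR-126-3p and -4.37 for miR-126-5p lay 0.57 apart. Relative to the colon mean, the within-array difference of 5p minus 3p was -0.19 and 0.19 in colon and 0.48 and 0.66 in liver macrophages. The 2-sided exact permutation test gave p = 0.333, the smallest that the 6 splits of 2 against 2 arrays allow, so this test could not pass 0.05 whatever the values. Microglia were left out here because the 5p arm was not detected in them.

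The miRNA with the profile most like that of either arm over the 6 arrays was miR-150-5p, known from mature lymphocytes. Likeness was the root mean square distance between log2 profiles after each miRNA's own mean was subtracted, over 413 other tested miRNAs. It lay 1.58 log2 units from miR-126-3p and 0.57 from miR-126-5p, where the median distances were 3.39 and 2.50. Its levels were 8.97 and 7.09 in liver and 2.83 and 4.22 in colon, and both microglia arrays failed to detect it. It was higher on liver replicate 1, as both miR-126 arms were. Other miRNAs were too, among them miR-139-5p (6.85 and 5.74) and miR-92a-3p (9.12 and 8.39), although the median of miRNAs detected on all arrays went the other way. The other miR-150 arm, miR-150-3p, did not share this profile. Between microglia and liver its log2 change was 3.32, against -6.39 for miR-150-5p (limma adjusted p = 0.0295 and 0.00277).

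miR-126-5p was second nearest to miR-126-3p (1.60), ahead of miR-6392-3p (1.64), miR-3474 (1.83) and miR-370-3p (1.96). In the other direction miR-126-3p ranked 36th for miR-126-5p. After miR-150-5p the nearest to miR-126-5p were miR-546 (1.25), miR-6236 (1.25), miR-3102-3p (1.26) and miR-490-5p (1.27). The last 3 of them were not detected on any microglia or colon array and stood at 4.22 to 4.76 in liver, while miR-546 was also detected on both colon arrays and 1 microglia array. The profiles share the floor, which places every undetected value at the same level.

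**Figure D3:**
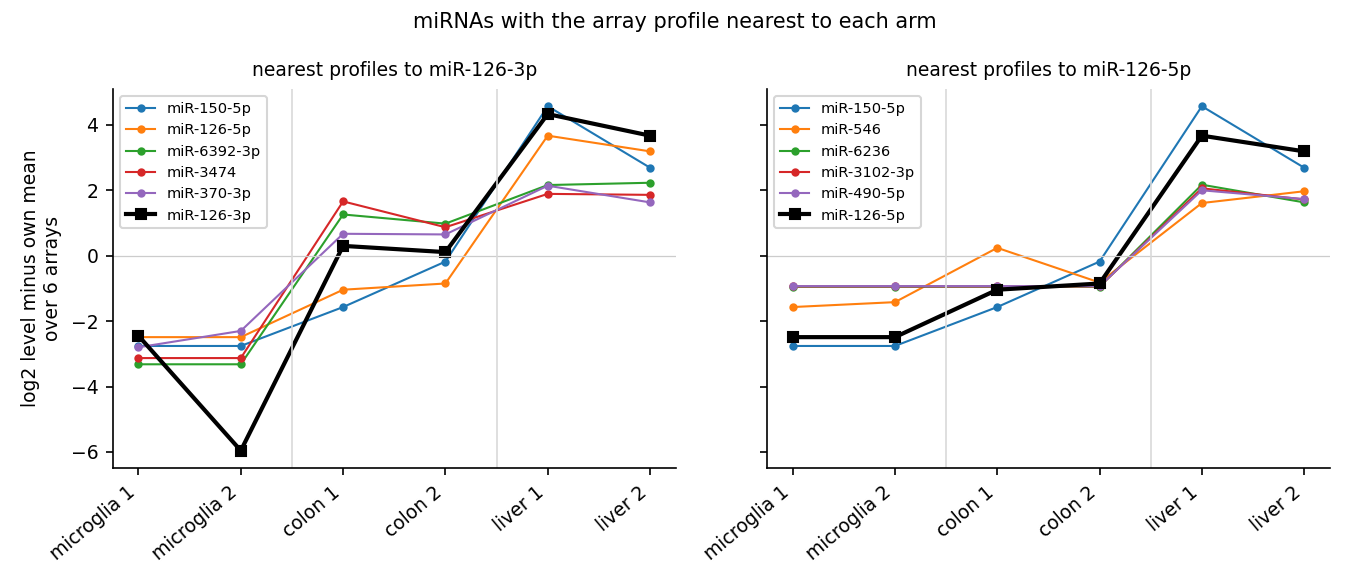
Log2 level minus its own mean over the 6 arrays (y axis) by array (x axis) for each arm (black squares) and the 5 miRNAs nearest to it. Lines only join the values of 1 miRNA. miR-150-5p runs closest to miR-126-5p, and the drop of miR-126-3p on microglia replicate 2 is shared by none of its 5 nearest. All of these except miR-370-3p were at the floor on both microglia arrays and so could not drop.

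Other miRNAs known from endothelium or vessel growth included members called in each direction in every comparison. The list held 20 such miRNAs, many of them also known from macrophages, so it is no measure of endothelial cells alone. In each comparison 18 members were tested, and miR-151-3p and miR-218-5p were detected on no array. Between colon and liver macrophages 1 member was lower in colon and 3 were higher, against 4.8% and 5.3% of all tested miRNAs. The median change of the list was 0.11, beside -0.04 for all tested miRNAs. The lower one was miR-151-5p, which lies in the gene of the adhesion kinase Ptk2, with levels of 5.96 and 5.73 in colon against 8.22 and 8.54 in liver (log2 change -2.53, limma adjusted p = 0.00805). miR-210-3p, induced by hypoxia, was higher in colon by 3.85, and so were miR-10b-5p by 1.49, from a Hox gene cluster, and miR-27b-3p by 1.43 (limma adjusted p = 0.00567, 0.0368 and 0.0448). The higher members numbered 1 without microglia replicate 2 or either colon array, and the lower ones 3 without liver replicate 1. The higher ones also numbered 1 with no scaling, with scaling by control rows, in the fit of both groups alone and with the replicate block.

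Between microglia and liver macrophages 6 of the 18 were lower in microglia and 4 higher, close to the 31.7% and 21.2% of all tested miRNAs. Those lower were miR-151-5p (log2 change -2.56), both arms of miR-139, miR-10a-5p, miR-221-3p and miR-222-3p. miR-139-5p had levels of 3.41 and 3.28 in microglia, 5.61 and 4.92 in colon, and 6.85 and 5.74 in liver, the same order of groups as the miR-126 arms. Its log2 change was -2.95 between microglia and liver (limma adjusted p = 0.00626). It was -1.91 between microglia and colon (limma adjusted p = 0.0284). Between colon and liver it was -1.03 (limma adjusted p = 0.267). Higher in microglia than in liver were miR-210-3p, miR-100-5p, miR-322-5p and miR-92a-3p, by 4.29, 1.87, 1.78 and 1.36 log2 units. The list's median change was 0.41, beside -0.60 for all tested miRNAs. Without microglia replicate 2, 3 members were lower and 1 was higher. The higher members numbered 10 with median scaling and 7 with quantile normalization, and 1 with no scaling, with scaling by control rows or with no filter, and the lower ones 2 with no filter.

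Between microglia and colon macrophages 6 of 18 list members were lower and 4 higher in microglia, near the 28.5% and 17.7% of all tested miRNAs. The list's median was -0.35, beside -0.43 over all. Lower were miR-130a-3p, miR-222-3p, miR-10a-5p, miR-221-3p, miR-10b-5p and miR-139-5p, and higher were miR-100-5p, miR-503-5p, miR-322-5p and miR-92a-3p. miR-130a-3p, known to favour vessel growth, was like miR-126-3p detected on microglia replicate 1 (5.07) and not on replicate 2. It passed only just (log2 change -3.54, SE 1.11, limma adjusted p = 0.0499). Leaving out microglia replicate 2 brought the lower members to 2, and leaving out colon replicate 1 or 2 to 3. The higher members numbered 1 without microglia replicate 1 or either colon array, and 0 by limma without microglia replicate 2, where 2 passed at an unadjusted p under 0.05. The higher ones numbered 2 with no scaling or with scaling by control rows.

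Some lists of other cell types were, like miR-126-3p, higher on microglia replicate 1 than on replicate 2. Of 9 epithelial miRNAs 8 were detected on replicate 1 and 2 on replicate 2, with summed scaled signals of 700 and 55.2. Of 4 hepatocyte miRNAs 3 and 2 were detected, with sums of 731 and 165. In these sums miR-122-5p had 277 and 158. The rest came from miR-192-5p (283 and 7.33) and miR-194-5p (171 on replicate 1 only), both also known from gut epithelium. Of 7 smooth muscle and fibroblast miRNAs 2 were detected on replicate 1, with a sum of 43.7, and all 7 were undetected on replicate 2. The erythrocyte and platelet list had sums of 715 and 122. Of these miR-451a gave 706 and 122 (log2 levels of 9.46 and 6.93). Lymphocyte miRNAs went the other way, with sums of 12.4 and 85.6 that came from miR-150-3p alone. Neuronal miRNAs had sums of 63.5 and 63.4, and the miRNAs of blood cell lineages 5230 and 5900. The list of endothelium and vessel growth gave 12000 and 13400. Its brightest member there, miR-23a-3p, gave 4650 and 5210 of these sums. That miRNA was bright in every group, with mean scaled signals of 4930 in microglia, 4400 in colon and 3060 in liver. The sum of this list is therefore no measure of endothelial cells alone. The part of these cell types in the microglia signal of miR-126-3p was not tested.

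Among the groups, these lists differed in their order. The hepatocyte miRNA miR-122-5p reached 11.07 and 11.82 in liver and 8.11 and 7.30 in microglia, and neither colon array detected it. Within liver miR-122-5p was higher on replicate 2 by 0.76 log2 units, beside a median of 0.46 for the 248 miRNAs detected on all arrays. Both miR-126 arms were lower on that replicate. The hepatocyte list summed to 2350 and 4090 in liver, with 3 and 4 of 4 members detected, and to 2340 and 1690 in colon. The colon sums came from miR-192-5p and miR-194-5p, which are also known from gut epithelium, and both miR-122 arms were undetected there. Lymphocyte miRNAs summed to 506 and 140 in liver, 10.1 and 18.6 in colon, and 12.4 and 85.6 in microglia. The liver sums came mostly from miR-150-5p (503 and 136), while miR-150-3p was higher in microglia than in liver. Smooth muscle and fibroblast miRNAs were higher in colon, with sums of 723 and 485 against 221 and 147 in liver. The epithelial list was at 3500 and 2450 in colon and at 15.6 and 34.4 in liver. The erythrocyte and platelet list summed to 58.8 and 51.2 in colon and 172 and 158 in liver. These sums came from miR-451a alone, 1 of 3 members on the array, so platelets were not measured apart from erythrocytes. The list of endothelium and vessel growth summed to 12200 and 11000 in colon and 7290 and 9470 in liver. Among markers of blood cell lineages, miR-142-3p lay between 11.24 and 12.31 over all 6 arrays. Another, the myeloid miR-223-3p, had levels of 8.27 and 8.47 in microglia, 12.67 and 12.83 in colon, and 11.45 and 12.40 in liver. It was lower in microglia than in colon by a log2 change of -4.38 and than in liver by -3.56 (limma adjusted p = 0.00177 and 0.00218). The part of other cell types in the group differences of miR-126 was not tested.

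**Figure D4:**
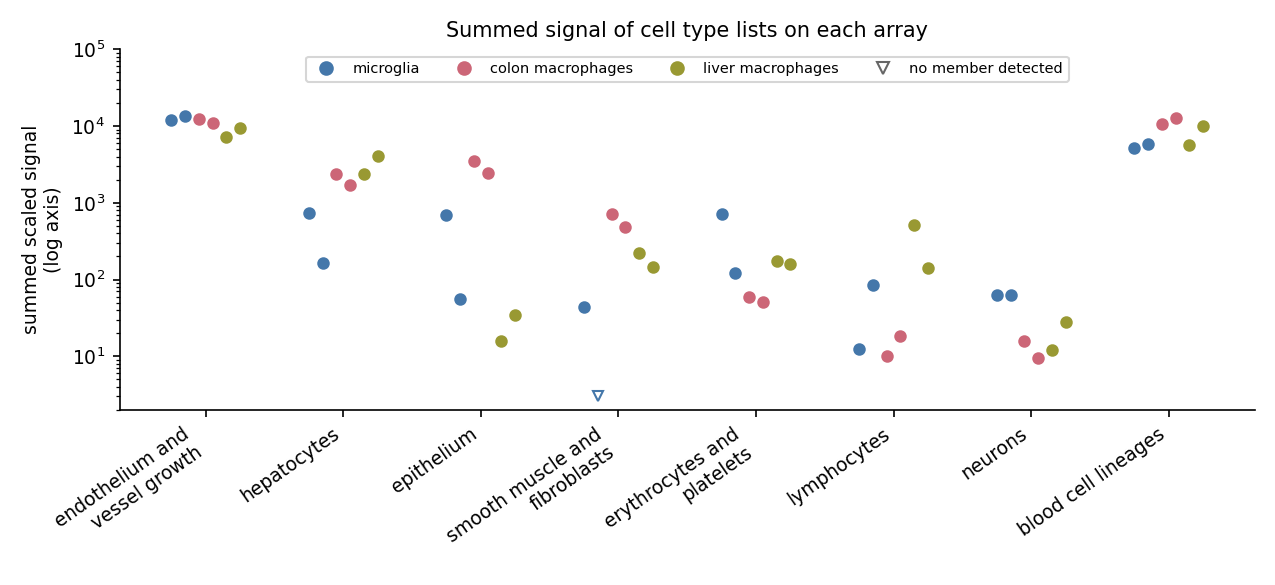
Summed scaled signal of the detected members of each cell type list (y axis, log axis) on each array, with groups in colour and microglia, colon and liver replicates from left to right in each list. The microglia arrays differ most in the epithelial list, 700 against 55.2, and in the smooth muscle and fibroblast list, where the triangle marks an array with no member detected.

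**Figure D5:**
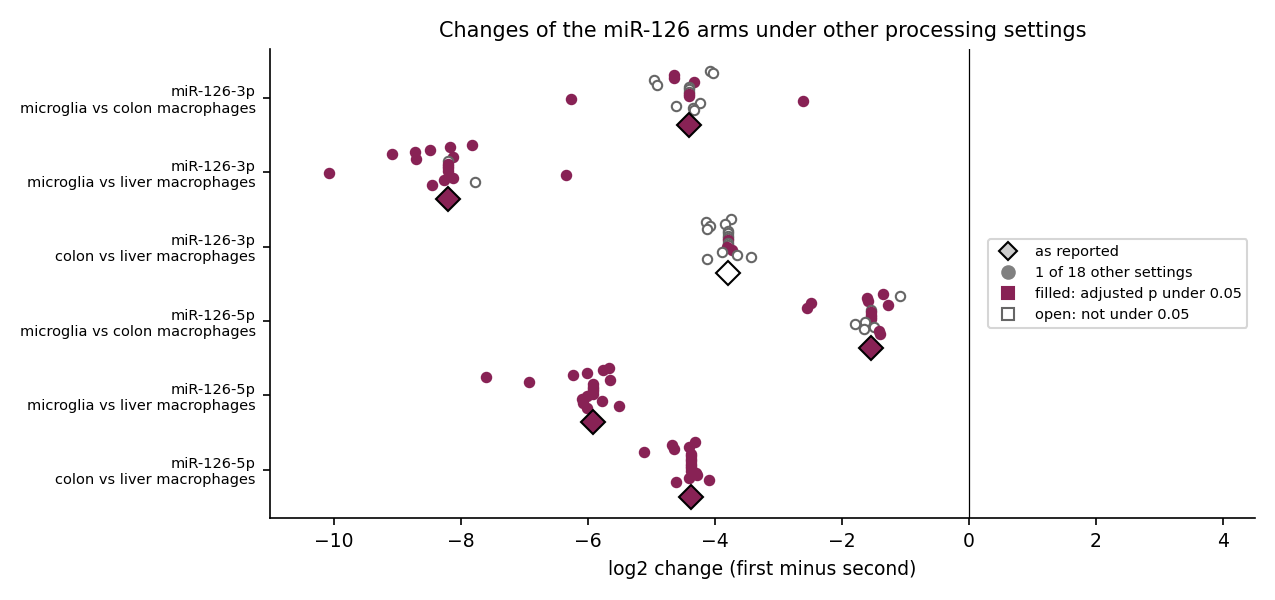
Log2 change (x axis) of each arm in each comparison as reported (diamond) and under 18 other settings (circles), filled where the adjusted p was under 0.05. Every change stayed negative, and the open symbols gather in miR-126-3p between colon and liver macrophages and in both arms between microglia and colon macrophages.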

How the data were processed

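Per the labels' protocols, 100 ng of total RNA per sample was hybridised with Cy3 as the single dye to Agilent miRNA arrays. The authors deposited for each array, per the file headers, a total gene signal for every miRNA, which is an intensity on a linear scale, with its error and a detection flag, where 0.1 stands for undetected miRNAs. The submitters' processing notes name Agilent Feature Extraction 9.1. The authors' deposited value table holds log2 values of 595 miRNAs, judged from its range, and the sources used here do not give its normalization. It correlated at r = 0.992 with the log2 signals computed here (248 miRNAs), had a median of 3.72 in every column, and was an alternative only.

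Between 24.1% and 32.3% of 1247 miRNAs were detected per array, after 21 control rows were left out. Scaling divided the signals of an array by their 75th percentile among the 248 miRNAs that every array detected, relative to the mean of these percentiles. Values under 3.12, the median of the arrays' lowest detected signals, were set to it before log2 was taken. limma 3.58.1 in R 4.3.3 fitted 3 group means over 6 arrays with a 2-sided eBayes test that had 2.20 prior and 3 residual degrees of freedom. Benjamini-Hochberg adjustment used, in each comparison, the miRNAs that both arrays of either group detected, 414 in all, with a threshold of 0.05. A fold against arrays with no detection takes each array's lowest detected signal, which can lie under the detection limit of a given probe. The fit was tested on simulated data with every miRNA detected, no floor and an equal spread in all groups. That test therefore does not cover the floored values and unequal spreads of the miR-126 arms. RNAfold 2.7.2 folded the hairpin. Replicates are separate pools, and the number of arrays limits the precision. The tables used here hold no slide, scan date or background, so no block for these and no normexp correction was run.

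The members, lists and tests were chosen with earlier results of these data known. Named miRNAs are the arms, members of the lists, and the 5 with the nearest profile to each arm.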

Additional observations from a re-analysis of the deposited data

How the results depend on the processing

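All 6 changes of the miR-126 arms kept their direction under each of 18 other settings. The calls of miR-126-5p in both comparisons with liver macrophages held under all 18. Its call between microglia and colon macrophages was lost with quantile normalization (-1.08, adjusted p = 0.0712) and with no filter on dim miRNAs (-1.55, adjusted p = 0.108, 1247 tested). That of miR-126-3p between microglia and colon was lost with median scaling (-4.07), quantile normalization (-4.03), the authors' values (-4.96), a floor lower by 1 log2 unit (-4.91), and, at -4.41, with no filter, with miRNAs detected on at least 1 array and in a fit of the 2 groups alone (adjusted p 0.0511 to 0.376, limma). Between microglia and liver it was lost with no filter (-8.21, adjusted p = 0.118). Between colon and liver miR-126-3p passed only in the fit of both groups alone (-3.80) among settings with all arrays. When single arrays were left out, miR-126-3p ranged from -6.26 to -2.62 (microglia and colon), -10.07 to -6.35 (microglia and liver) and -4.13 to -3.43 (colon and liver), and miR-126-5p from -1.79 to -1.40, -6.09 to -5.51 and -4.61 to -4.10. The lone array left in a group is then assumed to vary like the others. Fewer arrays or more tested miRNAs are part of several of these settings. For the scalings, the floor and the authors' values the cause was not tested. The difference between the arms ranged from -1 to -0.39. Replicate numbers are not tied to mice or days in the labels. Same-numbered arrays deviated together at r = 0.214 (microglia and colon), 0.0715 and -0.0922 over 248 miRNAs, and a replicate block left miR-126-3p at -4.41 (adjusted p = 0.0248) and changed no call of either arm.

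The share of all miRNAs called moved more. Lower in microglia than colon were 108 (12 to 133 over settings, 32 to 125 with an array left out), and higher 67 (15 to 112, 21 to 79). Against liver 121 were lower (31 to 163, 70 to 134) and 81 higher (21 to 124, 47 to 87). Between colon and liver 19 were lower in colon (5 to 31, 10 to 67) and 21 higher (2 to 25, 9 to 42). The median change moved over -0.92 to 0.02, -1.21 to 0 and -0.30 to 0. In the list of endothelium and vessel growth the members higher in microglia than liver numbered 1 to 10 over settings. With no filter limma called 0 list members between microglia and colon or colon and liver, where 4 higher and 6 lower, and 4 higher and 1 lower, passed at an unadjusted p under 0.05. Scaling by the 75th percentile over all miRNAs was not run, since that value is the 0.1 placeholder on microglia replicate 1. Low signal over error limits miR-126-5p in colon.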
